A study of Mus musculus with 10 samples.

Results

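The subject is a set of 10 genes chosen to contrast the sealed endothelium of the blood-brain barrier with leaky, fenestrated endothelium. It holds 9 transporters of the barrier, Slc2a1, Mfsd2a, Abcb1a, Abcg2, Slc7a5, Slc3a2, Slc16a1, Slco1a4 and Slco1c1, and Plvap, the protein of the diaphragms that span fenestrae. The genes were taken by symbol from the deposited table of 55401 genes, 1 row each, and all 10 were among the 14815 genes with enough counts to be tested. RNA was measured by bulk sequencing of meningeal lymphatic endothelial cells (LECs) from female C57BL/6 mice aged 3 months. The naive group had no stress, and the SCVS group went through sub-chronic variable stress, in which foot shocks, tail suspension and restraint alternate over 6 days. Each group had 5 replicates, and each replicate was a pool of cells from 3 to 4 dissected meninges. The cells were digested in the presence of actinomycin D, an inhibitor of transcription, and sorted as CD45- CD31+ podoplanin+ before the small amount of RNA was amplified.

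Endothelial cells of brain vessels are joined by tight junctions, so that sugars, amino acids, lipids and hormones cross them by way of transporters. The same cells pump many drugs and metabolites back into the blood, and they keep vesicle traffic low. Vessels of the dura and the choroid plexus lack this barrier, and their fenestrae and caveolae carry diaphragms built from PLVAP. Lymphatic endothelium is not part of the blood-brain barrier.

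Between 9984743 and 14094155 reads were counted per replicate, and 3 counts, used here as the floor of detection, correspond to 0.213 to 0.3 CPM (counts per 1000000 counted reads of the replicate). Without molecular identifiers this floor covers counting error only. The sorted cells carried markers of both blood and lymphatic endothelium. The 6 blood endothelial markers other than the genes described here (Flt1, Cldn5, Sox17, Vwf, Ly6c1 and Aplnr) summed to 146 to 6350 CPM in the naive and 2806 to 4272 CPM in the SCVS group. The 7 lymphatic markers (Prox1, Lyve1, Flt4, Pdpn, Mmrn1, Ccl21a and Reln) summed to 60.8 to 2747 CPM and 439 to 3074 CPM. Naive replicate 1 had 0 counts of Prox1, the lymphatic master regulator, 0 of Pdpn, the sorted antigen, and 2 of Lyve1. The other 4 of the 7 lymphatic markers, Flt4 (376 counts), Mmrn1 (165), Ccl21a (86) and Reln (5), were above the floor. The 7 summed to 60.8 CPM there, against 4804 CPM for the blood endothelial markers. Apart from naive replicate 5 (146 against 185 CPM) and SCVS replicate 4 (2806 against 3051 CPM), the blood endothelial sum was the higher. The paper gated blood endothelial cells as podoplanin-negative, so the sort should have left them out. Which cells the transporter reads came from was not tested. Naive replicate 5 stood apart from the rest. Its median correlation with the other libraries was 0.522, against 0.629 to 0.675 for the others, and 6 markers of endothelium in general (Pecam1, Cdh5, Kdr, Tie1, Egfl7 and Erg) summed to 286 CPM there, against 2252 to 5118 CPM elsewhere. The blood endothelial markers summed to 146 CPM there, against 2806 to 6350 CPM elsewhere, with only Flt1 and Ly6c1 above the floor. Of the 7 lymphatic markers, Prox1 had 843 counts there, Mmrn1 923, Pdpn 351, Flt4 240, Ccl21a 95, Reln 11 and Lyve1 1. Markers of astrocytes summed to 2886 CPM in that replicate, against 5.32 to 1368 CPM elsewhere. In bulk RNA, fewer cells of a type and less RNA per cell cannot be told apart.

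No gene of the set differed between SCVS and naive mice beyond the spread of the replicates. In edgeR's quasi-likelihood test, 0 of the 10 genes had an adjusted p under 0.1, against 0% of all tested genes, and each of the 10 had an adjusted p of 1.0. At an unadjusted p under 0.05 the count was also 0 of 10, against 3.1% of all tested genes. DESeq2 called 0 of the 10 at an adjusted p under 0.1, against 0.769% of all tested genes, and limma with voom called 0, against 0.0135% of all tested genes. In all 10 genes the groups overlapped in CPM, whereas they did not overlap in 0.628% of all tested genes. The edgeR log2 fold change was below 0 for all 9 transporters, with a median of −0.80, and above 0 for Plvap, while 51.8% of all tested genes lay below 0 with a median of −0.03. For 7 of the 10 genes the standard error was larger than the log2 fold change itself. The common sign of the transporters rested on several single replicates. Abcg2 was 0.18 without naive replicate 2, 0.01 without SCVS replicate 2, 0.10 without SCVS replicate 4 and 0.12 without SCVS replicate 5. Mfsd2a was 0.03 without SCVS replicate 1 and 0.05 without SCVS replicate 2, and Slc3a2 was 0.08 without SCVS replicate 3. The most transporters turned without naive replicate 3. Without it, the log2 fold change was 1.18 for Mfsd2a, 1.48 for Slco1c1, 0.40 for Abcg2, 0.30 for Slc16a1 and 0.08 for Slc3a2. It stayed below 0 for Slc2a1, Abcb1a, Slc7a5 and Slco1a4. Among the 10 genes, only Slc2a1 and Slc7a5 kept the sign of this value in all 18 alternative fits. Their size still rested on single replicates, since leaving out each in turn gave −1.49 to −0.64 for Slc2a1 and −1.31 to −0.26 for Slc7a5, both smallest without naive replicate 3, and Slc7a5 was −1.31 without SCVS replicate 2. The sign also depended on the scale, since the difference of the group means of log2(CPM + 1), SCVS minus naive, was 0.14 for Abcb1a, 0.49 for Abcg2 and 0.67 for Slco1a4, all of which were lowest in naive replicate 5.

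**Figure D1:**
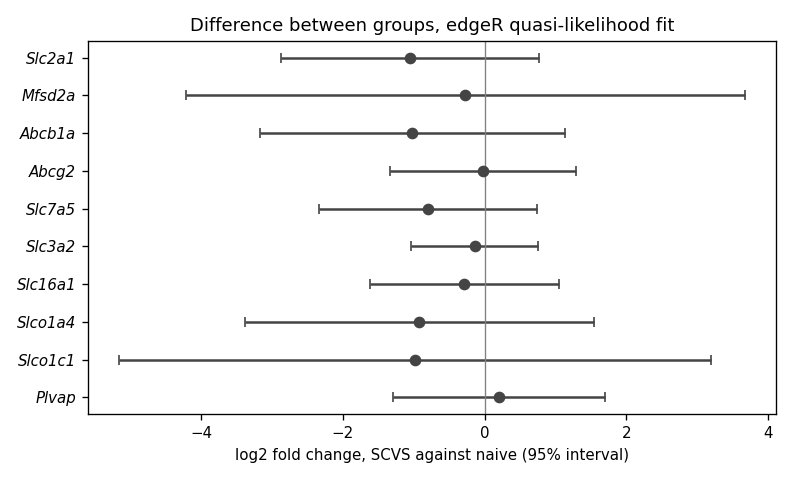
Log2 fold change of each gene between SCVS and naive mice on the horizontal axis, from edgeR's quasi-likelihood fit to 5 replicates per group, with bars for the 95% interval. All 10 intervals include 0, and the widest, for Slco1c1, runs from −5.16 to 3.20.

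Promoter sequences were matched by symbol in RefSeq (GRCm38.p6) for 8 of the 10 genes, not for Slc7a5 or Plvap. Shown here are the 250 bases before the start of 3 transporter genes whose levels went up and down together over the replicates, as described below. They were taken from the members of that group whose listed start is also the outermost start of the gene. Capitals mark matches, on either strand, to CTTTGA, the core of sites for the TCF and LEF factors of Wnt signaling, CCGGAA (ETS factors), GGGCGG (the GC box) and CACGTG (an E-box), none of which overlap here. Among all 32851 listed promoters cut to the same length, 13.8% hold CTTTGA, 12% CCGGAA, 32.7% GGGCGG and 6.02% CACGTG. Abcb1a lies at chr5:8566841-8567090, Slc2a1 at chr4:119108495-119108744 and Slco1c1 at chr6:141524104-141524353, all on the plus strand.
Abcb1a: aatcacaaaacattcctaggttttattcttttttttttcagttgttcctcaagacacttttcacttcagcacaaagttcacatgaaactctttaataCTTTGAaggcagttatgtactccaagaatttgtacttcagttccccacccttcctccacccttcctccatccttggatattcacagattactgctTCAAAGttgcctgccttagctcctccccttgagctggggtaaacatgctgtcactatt
Slc2a1: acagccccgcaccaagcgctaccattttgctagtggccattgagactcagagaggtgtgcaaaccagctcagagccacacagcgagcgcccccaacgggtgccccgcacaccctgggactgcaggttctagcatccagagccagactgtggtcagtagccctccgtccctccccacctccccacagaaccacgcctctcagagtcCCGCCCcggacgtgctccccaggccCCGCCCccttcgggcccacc
Slco1c1: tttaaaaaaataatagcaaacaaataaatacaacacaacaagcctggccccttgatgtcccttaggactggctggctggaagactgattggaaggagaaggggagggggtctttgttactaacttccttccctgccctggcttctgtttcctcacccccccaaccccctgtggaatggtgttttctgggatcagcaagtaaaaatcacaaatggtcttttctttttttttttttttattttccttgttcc
The Abcb1a stretch has 2 matches to CTTTGA and is 40.4% GC. The Slc2a1 stretch has 2 GC boxes and is 66.4% GC, against a median of 52.4% over all listed promoters. The Slco1c1 stretch has none of the 4 motifs and is 42.8% GC. Of the other transporters that varied with them, Mfsd2a has 1 match to CTTTGA and Slco1a4 has none of the 4 motifs. A match is a description of these letters, not evidence of a bound site.

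**Figure D2:**
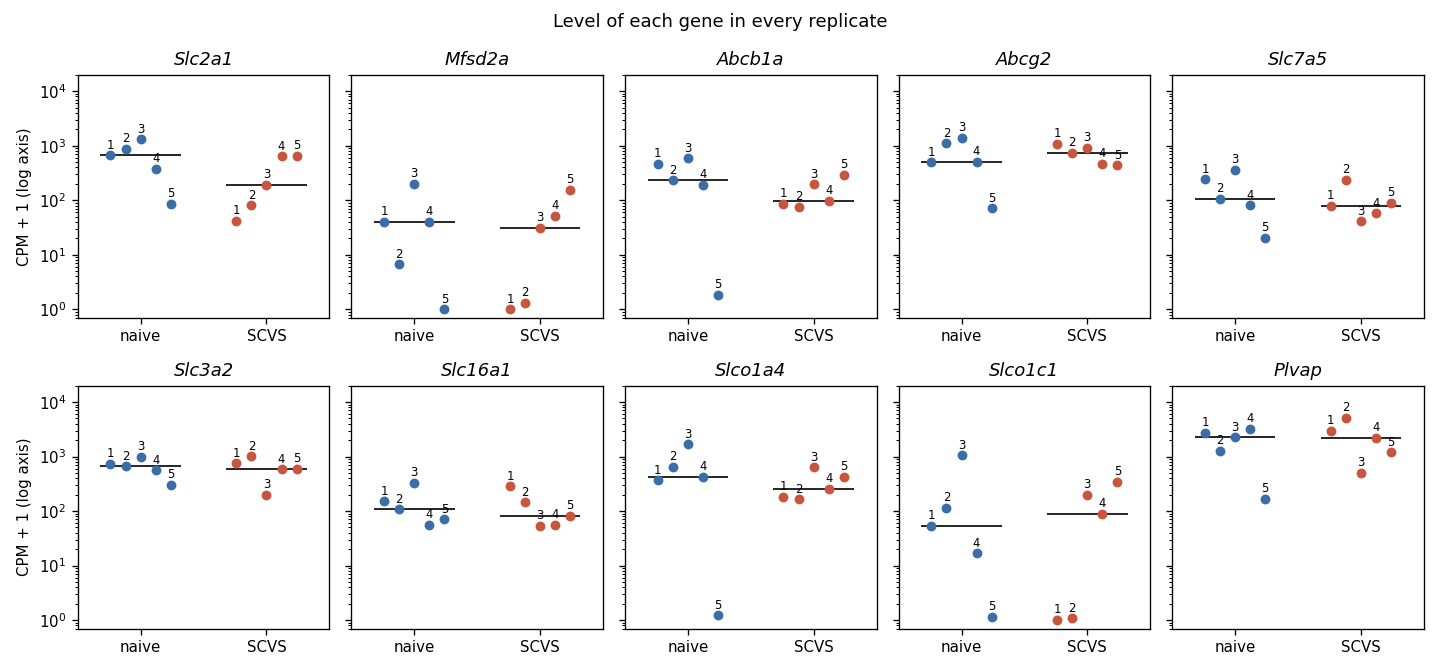
CPM + 1 of each gene on a log axis in the 5 naive and 5 SCVS replicates, with the replicate number above each point and a line at the group median. Slco1c1 and Mfsd2a lie at or near the bottom in naive replicate 5 and SCVS replicates 1 and 2, and the latter pair has the most Plvap of the SCVS group.

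Slc2a1 (ENSMUSG00000028645, chromosome 4, 119108745 to 119137330) encodes GLUT1, the glucose transporter of the barrier. It had 665, 876, 1305, 373 and 85.7 CPM in naive replicates 1 to 5 and 40.4, 79.2, 192, 638 and 652 CPM in SCVS replicates 1 to 5. The lowest values of all were those of SCVS replicates 1 and 2, and the other 3 SCVS replicates lay within the naive range. Slc2a1 averaged 661 ± 468 CPM without and 320 ± 302 CPM with stress (SD, n = 5 each). The log2 fold change was −1.05 with a 95% interval of −2.87 to 0.77 (edgeR adjusted p = 1.0). This was the largest shift of the set and had its smallest unadjusted p, 0.231 in edgeR. RefSeq places Gm12867 and Gm52706 within the span of the gene, and the use of strand in counting is not stated.

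Mfsd2a (ENSMUSG00000028655, chromosome 4, 122946850 to 122961194) takes up lysophospholipids that carry docosahexaenoic acid and keeps transcytosis low in brain endothelium. It had 39.4, 5.64, 201, 38.7 and 0 CPM in the naive replicates and 0, 0.329, 30.4, 50.6 and 155 CPM in the SCVS replicates. Naive replicate 5 and SCVS replicate 1 had no read, and SCVS replicate 2 had 4, so a silent replicate occurred in both groups. Mfsd2a averaged 56.9 ± 82.5 CPM without and 47.2 ± 63.8 CPM with stress (SD, n = 5 each), and the log2 fold change of −0.28 had a standard error of 1.80. Without naive replicate 3, the highest, the log2 fold change was 1.18.

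Slco1c1 (ENSMUSG00000030235, chromosome 6, 141524354 to 141570177) encodes OATP1C1, which carries thyroxine into the brain. Its CPM were 52.3, 114, 1047, 15.8 and 0.15 in the naive replicates and 0, 0.0822, 195, 88.3 and 340 in the SCVS replicates. It was the most uneven gene of the set, with 61.4% of its counts in naive replicate 3, and it was at or under the floor in naive replicate 5 and SCVS replicates 1 and 2. Its log2 fold change was −0.98 (standard error 1.91), but 1.48 once naive replicate 3 was left out.

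Slco1a4 (ENSMUSG00000030237, chromosome 6, 141805438 to 141856284) encodes OATP1A4, a carrier of bile acids, steroid conjugates and other organic anions. Its CPM were 366, 652, 1667, 424 and 0.225 in the naive replicates and 181, 163, 631, 258 and 429 in the SCVS replicates. All 5 SCVS values lay within the naive range, between the 3 counts of naive replicate 5 and the maximum in naive replicate 3. Slco1a4 averaged 622 ± 629 CPM without and 332 ± 197 CPM with stress (SD, n = 5 each), and the log2 fold change was −0.92 with a 95% interval of −3.38 to 1.54. Without naive replicate 5 it was −1.24 with an unadjusted p of 0.0487 (edgeR adjusted p = 1.0), and without naive replicate 3 it was −0.11. In edgeR without naive replicate 5, 595 of 14191 tested genes had an unadjusted p under 0.05. The near copies Slco1a5 and Slco1a6 had 183 and 10 counts in all, each in a single replicate, and Slco1a1 had none.

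The efflux pumps were Abcb1a and Abcg2. Abcb1a (ENSMUSG00000040584, chromosome 5, 8567091 to 8748575), which encodes P-glycoprotein, had 461, 230, 589, 191 and 0.825 CPM in the naive replicates and 84.8, 75, 195, 95.7 and 289 CPM in the SCVS replicates. Apart from naive replicate 5, which had 11 counts, the naive replicates lay at 191 CPM or above, and 3 of the 5 SCVS replicates lay below 100 CPM. The log2 fold change was −1.02 with a 95% interval of −3.17 to 1.13. Without naive replicate 5 it was −1.34 with an unadjusted p of 0.0272 and an adjusted p of 0.933 (edgeR). Without naive replicate 3 it was −0.60. Of 14191 genes tested in edgeR without naive replicate 5, 595 had an unadjusted p under 0.05, and 2 of these were of the set. Its near copy Abcb1b had 394 counts in all, and Rundc3b and Gm31157 overlap the span of Abcb1a.

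Abcg2 (ENSMUSG00000029802, chromosome 6, 58584491 to 58692451), the breast cancer resistance protein, behaved otherwise. It had 492, 1102, 1403, 505 and 70.4 CPM in the naive replicates and 1096, 735, 910, 465 and 436 CPM in the SCVS replicates. No SCVS replicate was low, and SCVS replicate 1, in which Mfsd2a and Slco1c1 had no read, had the highest Abcg2 of its group. The means of 715 ± 532 and 728 ± 284 CPM (SD, n = 5 each) gave a log2 fold change of −0.02 with a 95% interval of −1.33 to 1.29.

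Slc7a5 and Slc3a2 encode the light and heavy chains of LAT1, the carrier of large neutral amino acids. Slc7a5 (ENSMUSG00000040010, chromosome 8, 121881146 to 121907686) had 242, 105, 356, 79.3 and 19.4 CPM in the naive and 78.5, 236, 40.2, 56.5 and 89 CPM in the SCVS replicates. Slc3a2 (ENSMUSG00000010095, chromosome 19, 8706882 to 8723369), which also pairs with other light chains, had 744, 659, 997, 561 and 302 CPM in the naive and 746, 1004, 195, 584 and 596 CPM in the SCVS replicates. Both chains were above the floor in every replicate, and Slc3a2 was the steadiest gene of the set. Their log2 fold changes were −0.80 (standard error 0.70) and −0.14 (standard error 0.41).

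Slc16a1 (ENSMUSG00000032902, chromosome 3, 104638664 to 104658462) encodes MCT1, which moves lactate and ketone bodies. It had 149, 106, 325, 55.2 and 69.2 CPM in the naive replicates and 282, 143, 51.9, 54.7 and 80.3 CPM in the SCVS replicates. It was detected in every replicate, with the highest value in naive replicate 3 and the lowest in SCVS replicate 3. The log2 fold change was −0.29 with a 95% interval of −1.62 to 1.05.

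Plvap (ENSMUSG00000034845, chromosome 8, 71497753 to 71511806) had 2684, 1287, 2256, 3239 and 166 CPM in the naive replicates and 2934, 5068, 501, 2172 and 1197 CPM in the SCVS replicates. SCVS replicate 2 had the most and naive replicate 5 the least, and 4 replicates of each group lay within the range of the other. Plvap averaged 1927 ± 1216 CPM without and 2374 ± 1768 CPM with stress (SD, n = 5 each), and the log2 fold change was 0.20 with a 95% interval of −1.29 to 1.70. Without naive replicate 5 it was −0.08. Gtpbp3 and Gm46041 overlap the span of Plvap.

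Per kilobase of exon, Plvap was the most abundant of the 10 genes, with 1067 ± 720 CPM per kb (SD, n = 10). Slc3a2 followed with 216 ± 87.7, Slc2a1 with 172 ± 144, Abcg2 with 145 ± 80.6 and Slco1a4 with 124 ± 121 CPM per kb (SD, n = 10 each). Slco1c1 had 68.1 ± 118, Abcb1a 40.3 ± 33.5, Slc7a5 37.1 ± 31.2, Slc16a1 29.7 ± 22 and Mfsd2a 23.1 ± 31 CPM per kb. Plvap exceeded Slc3a2 by 1.97 ± 0.97 (mean ± SD, n = 10) on the log2(CPM per kb + 1) scale and in 9 of 10 replicates, the exception being naive replicate 5. At the remaining 8 steps of the order, neighbours differed by less than the SD of their difference between replicates.

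The transporters did not vary as 1 block. Over the 10 replicates, Slc2a1, Mfsd2a, Abcb1a, Slco1a4 and Slco1c1 had pairwise Spearman's rho of 0.63 to 0.87 on log2(CPM + 1), and Slc7a5, Slc3a2 and Slc16a1 had 0.73 to 0.88 among themselves. Between these 2 groups rho ranged from −0.15 to 0.65. The groups were formed after the values had been seen, and the replicates share their library preparation and the composition of the sort, so the correlations are descriptions. Without naive replicate 5 the ranges were 0.50 to 0.87, 0.73 to 0.88 and −0.27 to 0.60. Plvap had rho of 0.45 to 0.66 with the amino acid and lactate group and of −0.48 to −0.04 with the other group, which became 0.35 to 0.55 and −0.77 to −0.37 without naive replicate 5. With that replicate the Pearson correlation of Plvap with Slco1a4 was 0.62 although rho was −0.19, and without it they were −0.48 and −0.63, so the sign of the linear measure rests on naive replicate 5. Abcg2 was placed in neither group. Its rho was 0.45 to 0.48 with the amino acid and lactate group, near that of Plvap, and 0.00 to 0.58 with the other group.

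**Figure D3:**
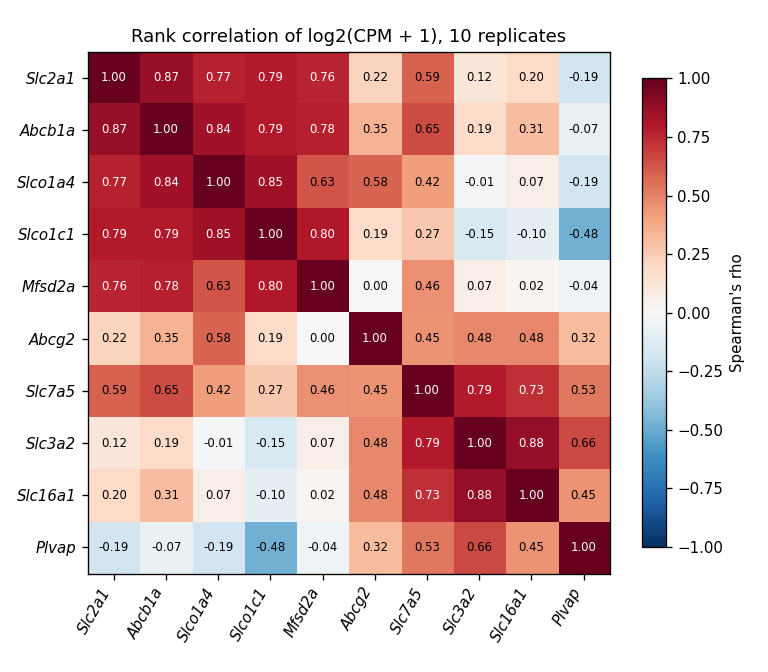
Spearman's rho between each pair of genes over the 10 replicates, on log2(CPM + 1), with red for positive and blue for negative values. The first 5 genes form a red block of 0.63 to 0.87, and Slc7a5, Slc3a2 and Slc16a1 a further block of 0.73 to 0.88. That block has rho of 0.45 to 0.66 with Plvap and of 0.45 to 0.48 with Abcg2.

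Values at or under the floor occurred in 3 replicates. In naive replicate 5, 3 of the 10 genes were at or under the floor (Mfsd2a, Slco1a4 and Slco1c1), whereas 4.18% of the 3903 tested genes with a mean CPM at least that of the lowest member were. In SCVS replicate 1, 2 genes were (Mfsd2a and Slco1c1), against 2.33% of those genes, and in SCVS replicate 2, 1 gene was (Slco1c1), against 1.05%. The other 7 replicates had none. In SCVS replicates 1 and 2 the 6 general endothelial markers summed to 4420 and 5118 CPM, the highest of all. The blood endothelial markers summed to 3405 and 4093 CPM there. Among these, Cldn5 had 2157 counts in SCVS replicate 1 and Vwf 154 in SCVS replicate 2, each the lowest outside naive replicate 5. SCVS replicates 1 and 2 combined nearly absent Slco1c1 and Mfsd2a with 2934 and 5068 CPM of Plvap. The part of cell make-up in this was not tested. SCVS replicate 3 was the reverse, with 195 CPM of Slco1c1 and 501 CPM of Plvap, the lowest Plvap of its group.

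The sum of the 9 transporters was 3211, 3850, 7890, 2243 and 547 CPM in naive replicates 1 to 5 and 2508, 2436, 2440, 2291 and 3066 CPM in SCVS replicates 1 to 5. The SCVS sums were close to one another, at 2548 ± 300 CPM (SD, n = 5), and the naive sums wide apart, at 3548 ± 2728 CPM (SD, n = 5). The extremes of the naive group were naive replicate 3 and naive replicate 5, which held few endothelial reads. These sums were not scaled to endothelial content. The general endothelial markers summed to 286 CPM in naive replicate 5 and to 2252 to 5118 CPM in the SCVS replicates. The similar SCVS sums were made up of different genes. Slc2a1, Mfsd2a, Abcb1a, Slco1a4 and Slco1c1 were all lower in SCVS replicate 1 than in SCVS replicate 5, Slc2a1 with 40.4 against 652 CPM. Abcg2, Slc3a2 and Slc16a1 were higher there, Abcg2 with 1096 against 436 CPM, and Slc7a5 had 78.5 and 89 CPM. Relative to Plvap CPM, the transporter sum ranged from 0.692 to 3.5 with a median of 2.99 in the naive group and from 0.481 to 4.87 with a median of 1.05 under SCVS. On the log2(CPM + 1) scale the mean of the 9 transporters minus Plvap was −3.20 ± 1.09 without and −3.87 ± 2.01 with stress (SD, n = 5 each), a difference of −0.68 that is smaller than either SD. The lowest values were −5.59 and −6.19 in SCVS replicates 1 and 2. The highest were −1.67 in naive replicate 3 and −1.68 in SCVS replicate 3.

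**Figure D4:**
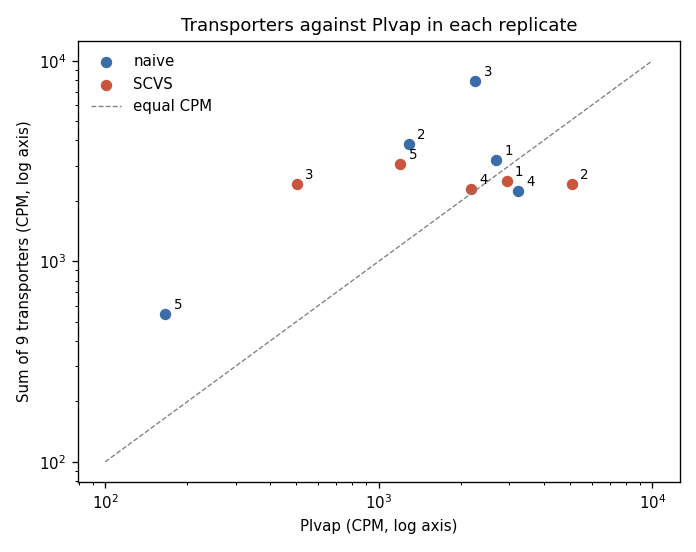
Summed CPM of the 9 transporters against Plvap CPM in each replicate, both on log axes, with the replicate number beside each point and a dashed line at equal CPM. The SCVS replicates spread along the Plvap axis from 501 to 5068 CPM at nearly constant transporter sums, and naive replicate 5 is low in both. Single transporters differed between the SCVS replicates although their sums were alike.

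Because naive replicate 5 held few endothelial reads, each gene was also divided by the summed CPM of the 6 general endothelial markers in the same replicate, a scaling chosen after the data had been seen. Plvap in naive replicate 5 was then 0.581, close to the median of 0.583 over all replicates, and Abcg2 was 0.246, within the range of 0.125 to 0.404 of the other 9. Slc2a1 was 0.3, the second highest. Slc3a2 was 1.05 and Slc16a1 0.242, both above every other replicate, which reached at most 0.25 and 0.0813. Abcb1a was 0.00289 and Slco1a4 0.000787, both below every other replicate, whose lowest values were 0.0147 and 0.0319. Slc7a5 was 0.0677, also the second highest, Mfsd2a was 0, and Slco1c1 was 0.000525 against a median of 0.0186. Naive replicate 5 was thus low for 4 of the 5 genes that varied together and high for Slc2a1, the other member of that group. Its blood endothelial markers summed to only 146 CPM, against 2806 to 6350 CPM elsewhere, which the scaling by general endothelial markers does not take into account. Slc3a2 and Slc16a1 are expressed by many cell types, and the astrocyte markers, led by Aldoc, had their highest sum in the same replicate. The sum of the arachnoid markers was also highest there (856 CPM, against 77.9 to 572 CPM elsewhere), but it came from Krt18 (10784 counts), a keratin of epithelial cells, and Cdh1 (618 counts), with the other 4 at or under the floor. The part of those cells in these values was not tested.

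**Figure D5:**
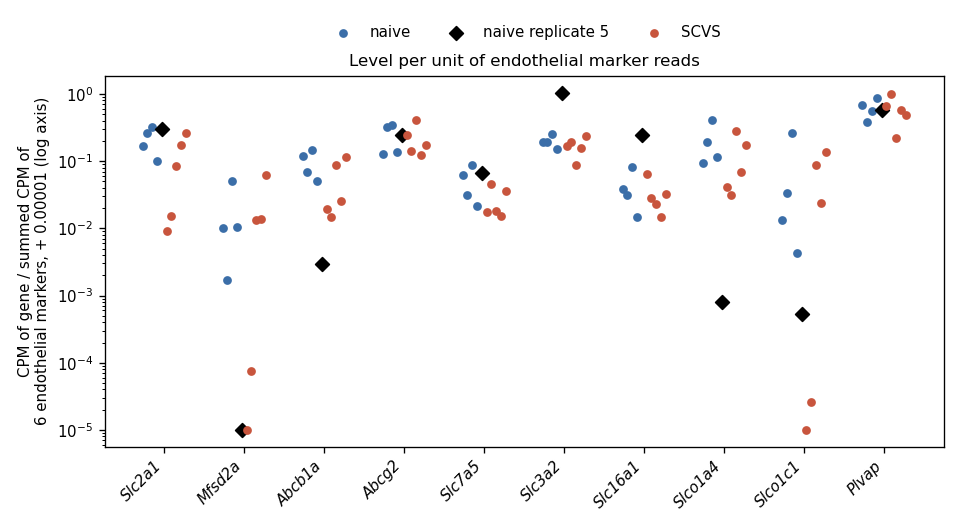
CPM of each gene divided by the summed CPM of 6 endothelial markers, plus 0.00001, on a log axis, with 1 point per replicate and a diamond for naive replicate 5. The diamond lies at the top for Slc3a2 and Slc16a1, mid-range for Plvap and Abcg2 and at the bottom for Abcb1a and Slco1a4.

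Reads of marker genes of other cell types, some of which express these transporters, were also counted. The CD45- CD31+ podoplanin+ gate selects against myeloid, mural and fibroblast cells, as it does against blood endothelial cells. Whether the reads came from cells or stray RNA was not tested. The 5 choroid plexus markers (Ttr, Folr1, Clic6, Kl and Aqp1) summed to 145 to 497 CPM in naive and 140 to 3838 CPM in SCVS mice. The highest sum, mainly Ttr, was in SCVS replicate 1, where Slco1c1, which choroid plexus also expresses, had no read. Aqp1 had the most counts of the list in naive replicates 2, 3 and 4 and SCVS replicates 4 and 5. Folr1 had 0 counts in naive replicates 1 to 4. Markers of arachnoid barrier cells, which express Abcg2, summed to 77.9 to 856 CPM in naive and 88 to 420 CPM in SCVS mice, with Krt18 the most abundant, and Slc22a6 among them was at most 1 count in every replicate. Mural markers summed to 765 to 7469 and 425 to 5914 CPM, mainly Rgs5, and erythroid markers, led by Hba-a1, to 4.32 to 44.2 and 7.25 to 4748 CPM, the highest in SCVS replicate 5. Fibroblast markers, led by Dcn, summed to 50.9 to 1318 and 18.5 to 1500 CPM, and myeloid markers, led by Mrc1, to 0.288 to 289 and 6.57 to 792 CPM. The part of these cells in the values of the 10 genes was not tested.

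The wider barrier program had no call in edgeR, and neither had the whole table (0% of all tested genes). The counts of 0 in the lists below therefore do not set them apart from other genes. Of 29 other transporters and receptors of brain endothelium, 28 were tested and 0 passed the threshold in either direction. At an unadjusted p under 0.05 in edgeR there were 0, against 3.1% of all tested genes. The median log2 fold change of the list was −0.39, against −0.03 for all tested genes. Without naive replicate 3 that median was 0.02, so its direction rests on this replicate. The smallest p in that list belonged to Bsg, the chaperone of MCT1 at the membrane, with 2730 ± 1582 CPM without and 1532 ± 823 CPM with stress (SD, n = 5 each) and a log2 fold change of −0.85 (edgeR adjusted p = 1.0). Next came Abcc1, an efflux pump, with 34.7 ± 50.7 and 6.63 ± 9.62 CPM, whose highest count, 1635, was in naive replicate 5. Of 20 tested regulators of barrier formation through Wnt and β-catenin, 0 passed in either direction, and the median log2 fold change was −0.34, but −0.10 without naive replicate 3 and 0.20 in limma. Tspan12, a co-receptor of Frizzled4, had 237 ± 60.5 CPM without and 345 ± 74.1 CPM with stress (SD, n = 5 each) and a log2 fold change of 0.50 (standard error 0.27), and Notum, a secreted Wnt inhibitor, had 13.8 ± 16.4 and 0.718 ± 0.994 CPM (log2 fold change −4.25, standard error 2.37). Neither passed the threshold, each with an edgeR adjusted p of 1.0.

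Of 12 tested genes of caveolae and vesicles, which share membrane domains with PLVAP, 0 passed in either direction, and the median log2 fold change was 0.19, but −0.10 without naive replicate 5, −0.01 without SCVS replicate 1 and 0.01 without SCVS replicate 2. Pacsin2 and Cavin1, with the smallest p in that list, had log2 fold changes of 0.56 (standard error 0.56) and −0.59 (standard error 0.71). Of 8 tested tight junction genes, 0 passed, 7 had a log2 fold change below 0, and the median was −0.39, but −0.19 without naive replicate 3 and 0.08 in limma. Cgn rested on 243 counts in naive replicate 5, and Tjp1 had 174 ± 71.9 and 143 ± 48 CPM (SD, n = 5 each).

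The tested genes whose levels ran most like that of Plvap over the 10 replicates were Hspg2 (Spearman's rho 0.98), Cracr2b (0.96), Ece1 (0.96), P4ha2 (0.95) and Ripply3 (0.95). For Slc2a1 they were Notum (0.96), Degs2 (0.95), Ptn (0.93), Wfdc1 (0.93) and Gm35572 (0.91). For Slco1a4 they were Pglyrp1 (0.94), Slc22a8 (0.93), Nostrin (0.92), Cat (0.92) and Phf12 (0.90). Each list was picked as the highest of 14815 correlations over the same replicates, and 2 of these genes, Notum and Slc22a8, were also on the lists of barrier genes.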

How the data were processed

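The authors deposited raw read counts, 1 count per gene and replicate, from paired-end reads of amplified cDNA, with no normalization. The paper's methods name Hisat2 2.0.1 and the mm9 genome, whereas the submitters' processing notes name GRCm38 with cutadapt 1.9.1, HISAT2 2.0.1, HTSeq 0.6.1 and DESeq2, and 22812 of the 55401 gene identifiers are absent from the mm9 annotation used here (GENCODE M1). Coordinates and promoters are from RefSeq on GRCm38.p6, and exon lengths from GENCODE M1. Use of strand is not given in the sources used here. The total count per replicate was 9984743 to 14094155.

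Replicates were grouped by their labels. Whether pools came from separate cohorts is not stated per replicate. The paper's filter, above 5 counts in 3 or more of the 10 replicates, left the genes that were tested in edgeR 4.0.16 (R 4.3.3) by the quasi-likelihood test after TMM normalization, with Benjamini-Hochberg adjustment over 14815 genes and a threshold of 0.1. The standard error is the absolute log2 fold change over the square root of F. CPM used column totals. Alternatives were DESeq2 1.42.0, limma 3.58.1 with voom, other scalings and filters, a replicate block, a covariate for how many genes were detected, 0.1 in place of 1 as pseudocount, and leaving out each replicate. The fit was tested on simulated data with large changes, which cannot show how often smaller changes would be found in these data. Python 3.11.15, NumPy 2.4.6 and Matplotlib 3.10.9 were used for the rest.

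The members and gene lists were chosen with earlier results of these data known. All 10 members are named. From each gene list the genes past the threshold or else the 2 with the smallest p are named, and for Plvap, Slc2a1 and Slco1a4 the 5 genes with the highest Spearman's rho. From each marker list the marker with the highest mean CPM and those at or under 3 counts in every replicate are named, and further markers were chosen after their values were seen.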

Additional observations from a re-analysis of the deposited data

Results flagged for a closer look

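In 3 of 22 groups of 5 values examined (each gene and the transporter and Plvap difference in each group), 1 replicate lay far from the other 4 by Dixon's criterion, where chance gives about 1 in 20 for normally distributed values. The genes were examined as CPM without logarithm, and these values are skewed towards high ones. The 3 flags are therefore not a count above chance. Slco1c1 had 1047 CPM in naive replicate 3, where the next naive value was 114. Mfsd2a had 201 CPM in the same replicate, where the next was 39.4. Slc7a5 had 236 CPM in SCVS replicate 2, where the next SCVS value was 89.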

How the results depend on the processing

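No alternative brought any of the 10 genes past the threshold, and their adjusted p ran from 0.47 to 1.0 over 180 refits. Over all genes, 0 passed in edgeR, 114 in DESeq2 (74 higher, 40 lower in SCVS; 817 genes without a p) and 2 in limma. At an unadjusted p under 0.05 there were 460, and 736 in limma, 4941 of 29449 with no filter, 176 of 12129 when 5 replicates had to reach 5 counts and 266 with the replicate block.

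Of the 180 refits, 158 kept the sign of the log2 fold change and 22 turned it. The median of all tested genes was 0.10 in limma and −0.03 in edgeR. In limma with voom the log2 fold change was 0.28 for Abcb1a, 0.48 for Abcg2, 1.00 for Slco1a4, 0.09 for Cavin1 and 0.32 for Cgn. Abcg2 was 0.03 with total counts, and with detected genes as covariate Abcg2 was 0.10, Slc16a1 0.24 and Plvap −0.07. Leaving out single replicates gave −1.49 to 1.18 for Mfsd2a, −0.30 to 0.40 for Abcg2, −0.32 to 0.08 for Slc3a2, −0.86 to 0.30 for Slc16a1, −1.80 to 1.48 for Slco1c1 and −0.20 to 0.46 for Plvap. The difference between transporters and Plvap stayed below 0, from −1.23 to −0.10. The cause was not tested.

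Replicates with the same number in both groups correlated at −0.0152 to 0.147 in their deviations from the group means, above 0.1 in 1 of 5 pairs, and were not treated as pairs. As a hint from the data only, 3 of 5 naive replicates correlated best with their own number. For number 1 the match is weak, since SCVS replicate 1 was the best match of naive replicates 1, 2 and 3 alike and its own-number correlation was 0.0375. With the replicate block 0 genes passed, Abcg2 was 0.39 and Cgn 2.85, and Mfsd2a was −2.20. The median of the Wnt regulators was 0.00 with the block, and that of the other barrier transporters −0.69 with the covariate.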

Other observations

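Among the 22 closest paralogues of the transporters, 17 were tested and 0 passed the threshold, with 1 higher and 1 lower in SCVS at an unadjusted p under 0.05, which 3.1% of all tested genes met. Their median log2 fold change was 0.43, but −0.28 without SCVS replicate 4, −0.06 without SCVS replicate 2, −0.17 with no filter, −0.21 with the replicate block and −0.23 with the covariate. Slc16a3, which encodes MCT4, an exporter of lactate, was counted 265, 235, 258, 202 and 37 times in naive replicates 1 to 5 and 33, 0, 0, 0 and 4 times in SCVS replicates 1 to 5. Its groups did not overlap in CPM, as in 0.628% of all tested genes, at 16 ± 8.32 and 0.548 ± 1.02 CPM (SD, n = 5 each), with a log2 fold change of −4.89 (standard error 2.06). The unadjusted p was 0.0357 and the adjusted p 1.0 in edgeR, 0.175 in DESeq2 and 0.555 in limma. Over its alternatives the log2 fold change of Slc16a3 ran from −7.55 to −4.57. Mfsd2b, a sphingosine-1-phosphate exporter, had 0 counts in every naive replicate and 21, 48, 0, 51 and 0 in SCVS replicates 1 to 5, a mean of 1.86 ± 1.96 CPM (SD, n = 5), at least 7.85-fold above the mean CPM of 3 counts per naive library (edgeR adjusted p = 0.964).

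Over the whole solute carrier family, 245 of 398 genes were tested, 0 passed the threshold, and 9 were higher and 5 lower in SCVS at an unadjusted p under 0.05, which 3.1% of all tested genes met. Of 50 ABC transporter genes, 37 were tested, with 0 past the threshold and 0 at an unadjusted p under 0.05 (edgeR's quasi-likelihood test), and a median log2 fold change of −0.14.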
